A study of Oryctolagus cuniculus with 15 samples.

Results

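The glycolytic enzyme genes HK1, HK2, PFKP, PFKL, ALDOA, PGK1, ENO1, PKM, LDHA and PDK1 were followed across 5 culture conditions of rabbit corneal keratocytes. They were chosen by gene symbol. Of these 10 genes, 9 had a row in the table of 23428 genes, and PFKL had no row under that symbol. A row with the identifier LOC103347367, which RefSeq (mOryCun1.1) pairs with PFKL, is given beside the 9 but was not counted with them.

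Keratocytes are the resident cells of the corneal stroma, where they maintain a transparent collagen matrix. Glycolysis splits glucose into pyruvate. Hexokinase (HK1, HK2) traps glucose in the cell, phosphofructokinase (PFKP, PFKL) catalyses the committed step, aldolase (ALDOA) splits the sugar, and phosphoglycerate kinase (PGK1), enolase (ENO1) and pyruvate kinase (PKM) act in the part that returns ATP. Pyruvate is then reduced to lactate by lactate dehydrogenase (LDHA) or enters the mitochondrion, where PDK1 inhibits its oxidation by phosphorylating pyruvate dehydrogenase.

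First-passage keratocytes from New Zealand white rabbits were kept for 6 days in serum-free medium in every condition. In 2DC they grew on a dish coated with type I collagen, in 2DF on top of a fibrillar collagen matrix, and in 3DF embedded in such a matrix at 100000 cells per matrix. 3DF_50 held 50000 cells per matrix, and 2DC_L was grown as 2DC but lysed in the dish without the digestion medium that all other conditions received before lysis. There were 3 libraries per condition, each from a separate experiment and from pooled dishes or matrices, so that a library is an average over many cells. In bulk RNA, fewer cells expressing a gene and less of its RNA per cell cannot be told apart.

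Between 14626982 and 31804255 reads were counted per library, and log2 CPM correlated between 0.975 and 0.992 within a condition. The lowest count of any of the 9 genes in any library was 175, for HK2, so all 9 passed the filter on low counts in every comparison. Of 10 keratocyte markers, 7 were in the table, and their summed level was 25012 to 31299 FPKM (fragments per kilobase, scaled to sequencing depth) for 2DC, 24590.0 to 30927 for 2DC_L, 23058 to 27437 for 2DF, 28510 to 43115 for 3DF and 20133 to 23632 for 3DF_50, where every library was below every 2DC, 2DC_L and 3DF library. Corneal epithelial markers (8 of 11 in the table) summed to 8.02 to 13.2 FPKM in 3DF, 0.731 to 6.30 in 2DF, 0.102 to 6.38 in 3DF_50 and at most 1.06 in 2DC and 2DC_L, where KRT12 was at 0. Vascular endothelial markers (4 of 4) summed to 117 to 119 FPKM in 3DF and to 32.9 to 75.5 in the other libraries, and corneal endothelial markers (5 of 5) to 186 to 280 in the embedded and 369 to 563 in the other libraries. Leukocyte markers (4 of 5) summed to 1.88 to 8.15 FPKM, and myofibroblast markers (3 of 4) to at most 0.877 in the embedded libraries and 1.42 to 10.3 in the others. These sums rest on the depth by which the authors divided, and markers of one list can move in different directions. The part of these differences in the results below was not tested.

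The 9 genes spanned a wide range of levels in these cells. Of all genes ranked by mean FPKM over the 15 libraries, LDHA (1230) ranked 30th and ENO1 (917) 45th, followed by PKM (273) at 171, ALDOA (253) at 183, PGK1 (97.3) at 520, PFKP (60.6) at 919 and HK1 (41.3) at 1467. PDK1 (9.57) ranked 6006th and HK2 (3.37) 9051st. FPKM is a level per length, so these are comparisons between genes as well as between libraries. The summed level of the 9 genes (FPKM, mean ± SD, n = 3 each) was lowest for 3DF_50 (2649.8 ± 193) and 3DF (2786 ± 27.3), and 2DF (2973 ± 271), 2DC (2978 ± 275) and 2DC_L (3038 ± 395) differed by less than their SD. This order depends on the depth by which the authors divided. Scaled by the sum of counts instead, 3DF_50 was the highest (3213 ± 220) and 2DC the lowest (2833 ± 376). LDHA made up 42.7% of that sum in 2DC and 35.4% in 3DF_50, and ENO1 30.7% and 37.7%.

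**Figure D1:**
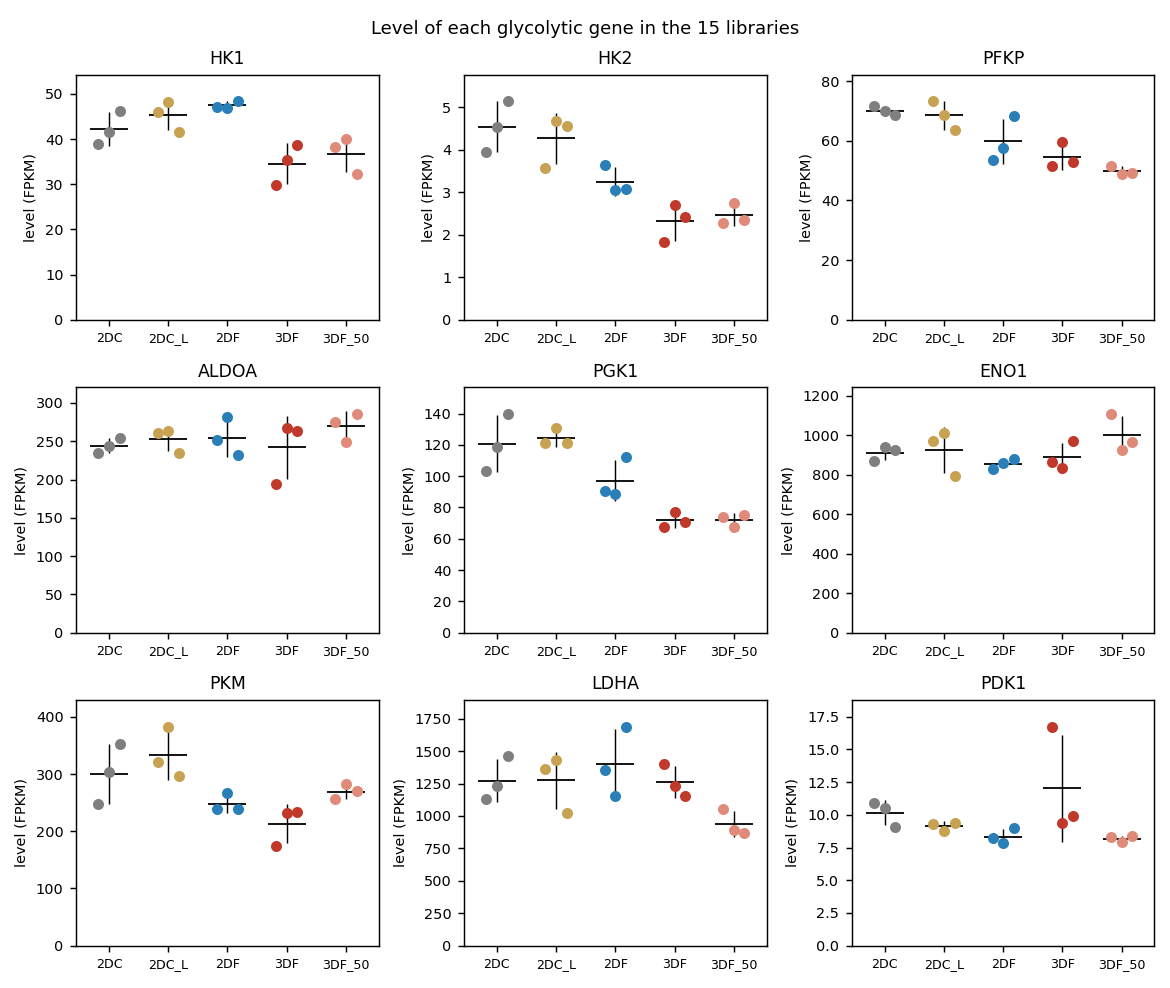
Level (FPKM, axes from 0) of each of the 9 glycolytic genes in the 15 libraries, by condition, where points are libraries, horizontal bars means and vertical bars SD (n = 3). HK2 and PGK1 are lower in every embedded library (3DF and 3DF_50) than in any 2DC, 2DC_L or 2DF library, whereas the conditions overlap for ALDOA.

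A test for any difference among the 5 conditions (edgeR quasi-likelihood F test on the counts, Benjamini–Hochberg adjusted over all genes) was passed by 5 of the 9 genes, where 41.8% of all 14036 genes tested passed. These were PGK1 (adjusted p = 4.98e-05), HK2 (0.000264), PFKP (0.00413), PKM (0.0132) and HK1 (0.0148). PDK1 (0.0538), LDHA (0.0801), ENO1 (0.542) and ALDOA (0.755) did not pass in edgeR.

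HK2, the inducible hexokinase, is located on chromosome 2 (111661470 to 111721018, minus strand, oryCun2). Its level was 3.95, 4.54 and 5.16 FPKM in 2DC, 3.58, 4.68 and 4.56 in 2DC_L, 3.64, 3.05 and 3.07 in 2DF, 1.82, 2.70 and 2.43 in 3DF, and 2.28, 2.75 and 2.35 in 3DF_50. Every embedded library was below every library of cells on a surface, 2DF lay between, and 2DF overlapped 2DC_L but not 2DC. The order of the means was 2DC (4.55 ± 0.606), 2DC_L (4.28 ± 0.602), 2DF (3.26 ± 0.335), 3DF_50 (2.46 ± 0.254) and 3DF (2.32 ± 0.449), where 2DC and 2DC_L, and 3DF_50 and 3DF, differed by less than their SD.

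HK1, the hexokinase that most tissues express at all times, is on chromosome 18 (17383858 to 17476156, minus strand). It was at 38.9, 41.6 and 46.3 FPKM in 2DC, 46, 48.2 and 41.7 in 2DC_L, 47.2, 46.8 and 48.5 in 2DF, 29.8, 35.3 and 38.7 in 3DF, and 38.3, 40.0 and 32.2 in 3DF_50. The 2DF libraries were the closest to each other, and all 3 lay above every embedded library. Since HK2 was lower in 2DF and HK1 was not, the HK1 to HK2 ratio of FPKM was smallest for 2DC (9.34 ± 0.462) and 2DC_L (10.8 ± 1.89) and larger for 2DF (14.7 ± 1.51), 3DF_50 (15.03 ± 1.61) and 3DF (15.1 ± 1.77). HK1 was therefore the more abundant hexokinase transcript in every library.

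PFKP, the platelet-type phosphofructokinase, is on the unplaced scaffold Un0009 (2754401 to 2823268, plus strand). Its level was 71.7, 70.0 and 68.7 FPKM in 2DC, 73.4, 68.6 and 63.7 in 2DC_L, 53.6, 57.5 and 68.3 in 2DF, 51.6, 59.7 and 52.8 in 3DF, and 51.7, 49.0 and 49.3 in 3DF_50. The embedded libraries lay below all 2DC and 2DC_L libraries, and 2DF reached from one range into the other. Against the muscle-type PFKM, whose mean was 26.3 to 28.6 FPKM in the 5 conditions, the PFKP level was 2.59 ± 0.075 times as high in 2DC and 1.79 ± 0.026 times in 3DF_50. The row paired with PFKL, LOC103347367 (scaffold Un1607, 380 to 6337, minus strand), had its highest mean with 2DC_L (51.2 ± 4.88 FPKM), followed by 2DC (48.4 ± 2.13), 3DF (45.5 ± 0.662), 3DF_50 (42.5 ± 2.72) and 2DF (38.5 ± 3.43).

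ALDOA, on chromosome 6 (18443387 to 18448736, plus strand), encodes the main aldolase outside liver and brain. It was at 234, 244 and 254 FPKM in 2DC, 260, 263 and 235 in 2DC_L, 251, 281 and 231 in 2DF, 194, 268 and 264 in 3DF, and 276, 248 and 286 in 3DF_50. All conditions overlapped. Its means, 242 ± 41.1 FPKM in 3DF to 270.0 ± 19.3 in 3DF_50, were within the spread of the libraries.

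PGK1, on chromosome X (69851772 to 69870775, plus strand), catalyses the first ATP-forming step. Its level was 104, 119 and 140 FPKM in 2DC, 121, 131 and 121 in 2DC_L, 90.5, 88.8 and 112 in 2DF, 67.6, 77.3 and 70.8 in 3DF, and 73.7, 67.6 and 75.5 in 3DF_50. As with HK2, no embedded library reached the lowest library of cells on a surface. The order of the means was 2DC_L (124 ± 5.54), 2DC (121 ± 18.3), 2DF (97.1 ± 13.0), 3DF_50 (72.3 ± 4.10) and 3DF (71.9 ± 4.91), where the first pair and the last pair differed by less than their SD.

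ENO1, on chromosome 13 (141110303 to 141121549, plus strand), encodes the enolase of most tissues. It was at 869, 943 and 924 FPKM in 2DC, 970, 1012 and 795 in 2DC_L, 831, 861 and 878 in 2DF, 864, 837 and 973 in 3DF, and 1110, 928 and 966 in 3DF_50. The highest library was 1.40 times the lowest, the narrowest range of the 9 genes. As PGK1 was lower in embedded cells and ENO1 was not, the PGK1 to ENO1 ratio stood at 0.132 ± 0.017 for 2DC, 0.113 ± 0.013 for 2DF, 0.081 ± 0.010 for 3DF and 0.072 ± 0.006 for 3DF_50.

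PKM, the pyruvate kinase gene of most tissues outside liver and red cells, is on chromosome 17 (304096 to 317843, plus strand). It was at 247, 303 and 352 FPKM in 2DC, 321, 383 and 298 in 2DC_L, 238, 266 and 239 in 2DF, 174, 232 and 234 in 3DF, and 257, 282 and 270 in 3DF_50. All 3DF libraries lay below all libraries of the other conditions (234 against 238 FPKM at the closest, in 2DF), although 3DF_50 overlapped 2DC. Gene counts do not separate the PKM1 and PKM2 isoforms.

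LDHA, on scaffold Un0035 (2324606 to 2336699, plus strand), was the most abundant of the 9. Its level was 1131, 1229 and 1460 FPKM in 2DC, 1363, 1432 and 1026 in 2DC_L, 1353, 1151 and 1690 in 2DF, 1401, 1233 and 1157 in 3DF, and 1055, 893 and 870.4 in 3DF_50. The 3DF_50 libraries were below all libraries of 2DC, 2DF and 3DF and overlapped 2DC_L. LDHB, the other common lactate dehydrogenase subunit, averaged 217 ± 21.7 FPKM for 2DC and fell to 154 ± 7.14 with 3DF (log2 fold change −0.50, SE 0.12, edgeR adjusted p = 0.024) but was lost without 2DC replicate 2 (−0.49) or 3 (−0.43), without 3DF replicate 2 (−0.53) or 3 (−0.52) and when scaled by library size alone (−0.33). It was at 159 ± 14.7 FPKM with 3DF_50. The LDHA to LDHB ratio was 5.87 ± 0.343 for 2DC and 5.91 ± 0.685 for 3DF_50, and 8.34 ± 1.42 for 2DF and 8.26 ± 1.21 for 3DF.

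PDK1, on chromosome 7 (112251934 to 112290218, plus strand), was at 10.9, 10.5 and 9.10 FPKM in 2DC, 9.30, 8.78 and 9.40 in 2DC_L, 8.20, 7.82 and 8.98 in 2DF, 16.7, 9.35 and 9.94 in 3DF, and 8.27, 7.91 and 8.34 in 3DF_50. A single 3DF library stood apart, since 3DF replicate 1 was at 16.7 FPKM. The same library had the highest summed keratocyte markers (43115 FPKM, against 28510 and 28847 in the other 3DF libraries). It also had the lowest 3DF level of HK1, HK2, PFKP, ALDOA, PGK1 and PKM, and its part in each 3DF result was tested by leaving it out.

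**Figure D2:**
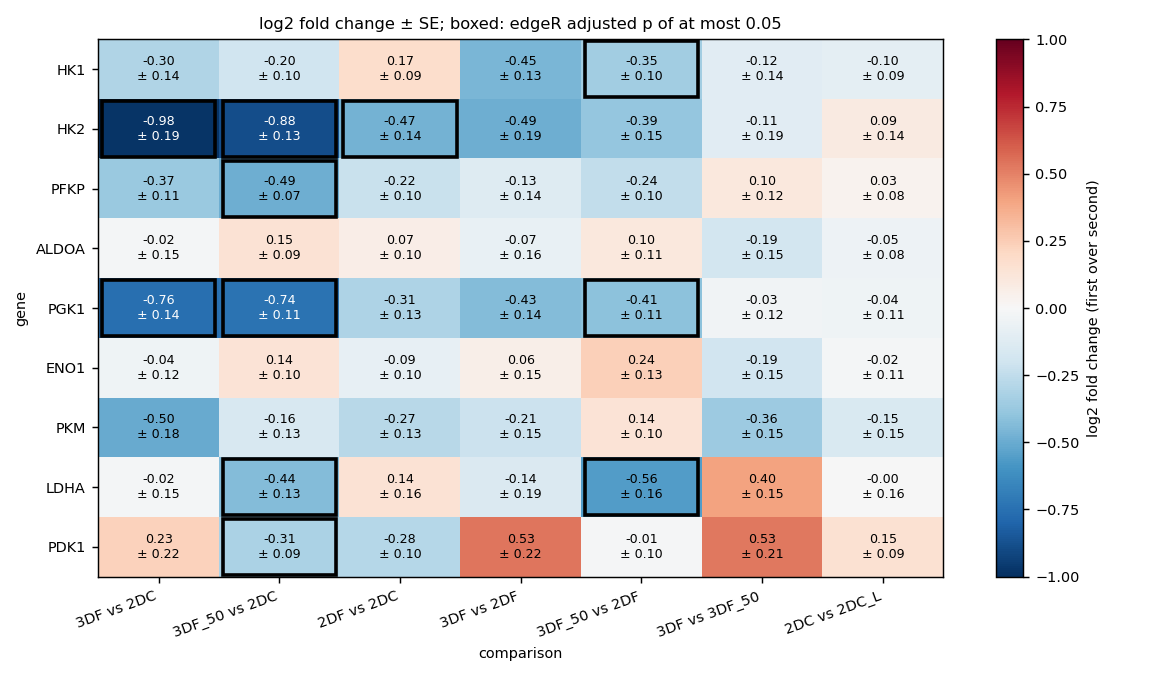
Log2 fold change (colour and number, first condition over second) ± SE of the 9 genes (rows) in the 7 comparisons (columns), with boxes where the edgeR adjusted p was at most 0.05. All 11 boxed values are negative, and HK2 and PGK1 are boxed in both comparisons of embedded cells with 2DC.

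The comparison of 3DF with 2DC asked how cells embedded in fibrils differ from cells on a coated dish. HK2 and PGK1 were lower in 3DF, and the other 7 genes did not pass. On the log2 scale HK2 differed by −0.98 (SE 0.19, edgeR adjusted p = 0.00957) and PGK1 by −0.76 (SE 0.14, edgeR adjusted p = 0.0083). These are 2 of 9 genes, where 15.4% of 13493 genes passed, 942 of them higher and 1131 lower. Among the 9 genes PDK1 was at the upper end with 0.23, a value that turned to −0.08 without 3DF replicate 1. The median log2 fold change of the 9 was −0.30, beside 0.012 over all genes. Scaled by library size alone, the median of all genes moved to 0.187 and that of the 9 to −0.12.

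Both calls held in all 6 fits that left out a library and in all 11 other fits, with HK2 from −1.11 to −0.82 and PGK1 from −0.86 to −0.63 on leaving out a library. The threshold of an absolute log2 fold change of 1 that defines a DEG in the study was met by 0 of the 9 genes in any comparison with all libraries of the 2 conditions. HK2 in 3DF vs. 2DC passed it without 2DC replicate 1 (−1.08), 3DF replicate 2 (−1.11) or 3DF replicate 3 (−1.02), and with the prefix of the library names as a term (−1.18), as it then did in 3DF_50 vs. 2DC (−1.17). Library names carry a prefix (E and a number) that 2DC replicate 3 and 3DF replicate 1 share. Within that pair the log2 ratio of FPKM was −1.50 for HK2 and −1.05 for PGK1. PFKP passed as well without 3DF replicate 1 (−0.32, edgeR adjusted p = 0.0351). DESeq2 called PFKP (−0.36, adjusted p = 0.0132) and PKM (−0.50, adjusted p = 0.041) too, where it called 19.9% of all genes.

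The same comparison at the lower cell density, 3DF_50 vs. 2DC, used the same 2DC libraries. Here 5 of 9 genes passed, all lower, where 38% of 13402 genes passed. PFKP changed by −0.49 (SE 0.07, edgeR adjusted p = 0.0008), HK2 by −0.88 (SE 0.13, adjusted p = 0.00109) and PGK1 by −0.74 (SE 0.11, adjusted p = 0.00115). LDHA changed by −0.44 (SE 0.13, edgeR adjusted p = 0.0264) and PDK1 by −0.31 (SE 0.09, adjusted p = 0.0228). ALDOA, at 0.15, was at the upper end. The median of the 9 was −0.31, beside 0.012 over all genes.

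HK2, PGK1 and PFKP passed in all 6 fits that left out a library. In contrast, LDHA was lost without 2DC replicate 2 (−0.46), 2DC replicate 3 (−0.33), 3DF_50 replicate 2 (−0.40) or 3DF_50 replicate 3 (−0.39), with an edgeR adjusted p of up to 0.0868. PDK1 was lost without 2DC replicate 1 (−0.26), 2DC replicate 2 (−0.29), 3DF_50 replicate 1 (−0.32) or 3DF_50 replicate 2 (−0.29), with an edgeR adjusted p of up to 0.0888. Of 11 other fits, LDHA held in 4, PDK1 in 7, PFKP in 10, and HK2 and PGK1 in all 11. The summed FPKM of the keratocyte markers was also lower in every 3DF_50 library than in every 2DC library. Of the 7 markers, however, 3 passed as higher and 2 as lower, beside 38% of all genes. The sum also rests on the authors' depth, which was 1.19 to 1.24 times the sum of counts in 3DF_50 and 0.924 to 0.995 times in 2DC. The part of these markers in the calls was not tested. Within the one pair of libraries with a shared prefix (2DC replicate 2 and 3DF_50 replicate 1) the log2 ratios of FPKM were −0.99 for HK2, −0.69 for PGK1, −0.44 for PFKP, −0.34 for PDK1 and −0.22 for LDHA. Scaled by library size alone, the median of all genes moved to 0.365 and that of the 9 genes to 0.042. HK2 and PGK1 then still passed as lower, PFKP, LDHA and PDK1 did not pass, and ALDOA (0.50) and ENO1 (0.49) passed as higher, so that the split changed from 0 higher and 5 lower to 2 and 2. With that scaling 47.6% of all genes passed as higher and 10.3% as lower.

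Fibrils beneath the cells rather than a coating, 2DF vs. 2DC, gave 1 call among the 9 genes, where 14.4% of 13258 genes passed. HK2 changed by −0.47 (SE 0.14, edgeR adjusted p = 0.0485), and HK1 was at the other end with 0.17. The HK2 call lay close to the threshold. It was lost without 2DC replicate 2 (−0.47), 2DC replicate 3 (−0.37), 2DF replicate 1 (−0.56), 2DF replicate 2 (−0.43) or 2DF replicate 3 (−0.43), with an edgeR adjusted p of 0.058 to 0.151, and held in 4 of 11 other fits. PFKP passed without 2DF replicate 3 (−0.33, edgeR adjusted p = 0.0428). The row paired with PFKL, LOC103347367, passed at −0.33 (SE 0.09, edgeR adjusted p = 0.0455) but only 1 of 6 fits without a library kept it. No library prefix was shared by 2DF and 2DC. The median of the 9 was −0.22, beside 0.0045 over all genes, and −0.12 beside 0.110 when scaled by library size alone.

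Embedding in the fibrils rather than lying on top of them, 3DF vs. 2DF, gave 0 calls among the 9 genes in edgeR, where 6.05% of 13195 genes passed. At an unadjusted p under 0.05 in edgeR there were 4, beside 21.9% of all genes. DESeq2 called 1 (HK1, −0.46, adjusted p = 0.0314), beside 10.1% of all genes. The fold changes ran from −0.49 for HK2 to 0.53 for PDK1, and PDK1 was at 0.21 without 3DF replicate 1. At the lower density, 3DF_50 vs. 2DF, 3 of 9 genes passed, all lower, where 13.4% of 13201 genes passed. PGK1 changed by −0.41 (SE 0.11, edgeR adjusted p = 0.0298), HK1 by −0.35 (SE 0.10, adjusted p = 0.0379) and LDHA by −0.56 (SE 0.16, adjusted p = 0.0482), and ENO1 was at the upper end with 0.24.

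None of these 3DF_50 vs. 2DF calls held in all fits that left out a library. Of 11 other fits, PGK1 held in 8, HK1 in 7 and LDHA in 5. PGK1 was lost without 2DF replicate 3 (−0.30) or any 3DF_50 library (−0.36 to −0.44 for PGK1, adjusted p of 0.0678 to 0.11 in edgeR). HK1 passed only without 3DF_50 replicate 2 and was lost without any other library (−0.26 to −0.38, edgeR adjusted p of 0.0672 to 0.16). LDHA passed only without 2DF replicate 2 and was lost without any other (−0.40 to −0.65, edgeR adjusted p of 0.065 to 0.168). In the pair that shares a prefix (2DF replicate 1 and 3DF_50 replicate 2) the log2 ratios of FPKM were −0.24 for HK1, −0.42 for PGK1 and −0.60 for LDHA. Scaled by library size alone, the median of all genes was 0.247 and that of the 9 −0.011, 0 of the 9 passed as lower, and ENO1 (0.47) and PKM (0.37) passed as higher. With that scaling 21.7% of all genes passed as higher and 5.45% as lower.

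Cell density within the matrix, 3DF vs. 3DF_50, gave 0 calls among the 9 genes in edgeR, where 0.617% of 13285 genes passed, and 0 in DESeq2, where 5.49% passed. At an unadjusted p under 0.05 in edgeR there were 3, beside 20% of all genes, and the fold changes ran from −0.36 for PKM to 0.53 for PDK1, or 0.22 for PDK1 without 3DF replicate 1. The digestion medium, 2DC vs. 2DC_L, also gave 0 calls in edgeR, where 0.367% of 13608 genes passed, and 0 in DESeq2, where 0.691% passed. There were 0 of the 9 at an unadjusted p under 0.05, beside 5.73% of all genes, and the fold changes lay between −0.15 for PKM and 0.15 for PDK1, with SEs of 0.15 and 0.09. These conditions share a prefix in 2 pairs of libraries (replicates 1 and replicates 2), within which the log2 ratio of FPKM was −0.37 and −0.34 for PKM, −0.27 and −0.22 for LDHA, −0.24 and −0.21 for HK1, −0.23 and −0.14 for PGK1, −0.16 and −0.10 for ENO1, −0.15 and −0.11 for ALDOA, and 0.23 and 0.26 for PDK1. HK2 (0.14 and −0.05) and PFKP (−0.03 and 0.03) differed in sign between the pairs. In replicates 3, which share no prefix, PKM, LDHA, HK1, PGK1, ENO1 and ALDOA were higher in 2DC and PDK1 was higher in 2DC_L.

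**Figure D3:**
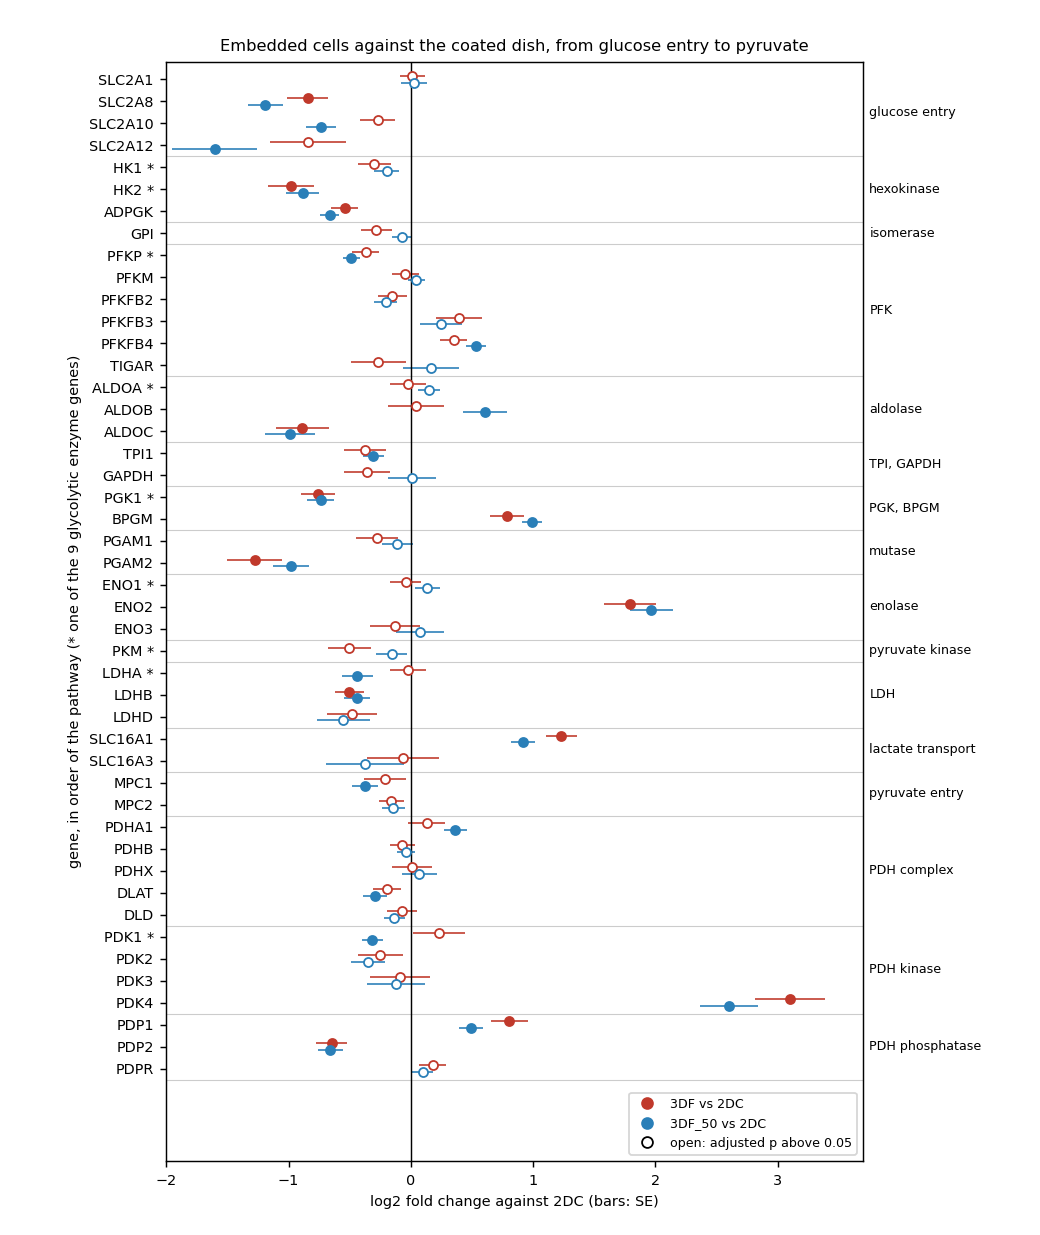
Log2 fold change against 2DC (horizontal axis, bars are SE) of genes from glucose entry to pyruvate oxidation, in pathway order, for 3DF (red) and 3DF_50 (blue), which share their 2DC libraries. Filled points passed the edgeR test, and asterisks mark the 9 glycolytic enzyme genes. PDK4 and ENO2 lie farthest to the right, and the 9 marked genes lie between −0.98 (HK2) and 0.23 (PDK1), both in 3DF.

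The rest of the pathway was read from lists of genes by function. Of 17 other glycolytic enzyme genes tested in 3DF vs. 2DC, 2 rose and 4 fell, where 15.4% of all genes passed. ENO2, the neuronal enolase, rose from 1.15 ± 0.0871 to 4.005 ± 0.829 FPKM (log2 fold change 1.80, SE 0.21, edgeR adjusted p = 0.00108), and BPGM, which makes 2,3-bisphosphoglycerate from the PGK1 substrate, from 22.4 ± 0.481 to 39.0 ± 7.33 (0.78, SE 0.14, adjusted p = 0.00766). PGAM2, the muscle phosphoglycerate mutase, fell from 13.7 ± 1.36 to 5.68 ± 1.58 FPKM (−1.28, SE 0.23, edgeR adjusted p = 0.00752) and ADPGK, an ADP-dependent glucokinase, from 39.7 ± 1.29 to 27.5 ± 1.92 (−0.54, SE 0.11, adjusted p = 0.0122). ADPGK was lost without 2DC replicate 2 (−0.52). GPI (−0.28), TPI1 (−0.38) and GAPDH (−0.36) did not pass in 3DF vs. 2DC. In library-size scaling 2 rose and 1 fell, beside 1969 higher and 790 lower of all 13493 genes.

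ENO2 was at 1.05, 1.201 and 1.195 FPKM in 2DC, 4.28, 2.85 and 2.34 in 2DF, 3.58, 4.96 and 3.48 in 3DF, and 3.91, 5.17 and 4.37 in 3DF_50. It was higher in every library with fibrils than in any without, at 39 to 259 reads per library. ENO1 exceeded it by 796 ± 29.3 times in 2DC and 230.0 ± 56.4 times in 3DF, so that ENO2 added little to the summed enolase transcript. In 2DF vs. 2DC, ENO2 also passed (1.47, SE 0.26, edgeR adjusted p = 0.00715). There 1 of the 17 rose and 4 fell, among them TPI1 (−0.47, SE 0.09, adjusted p = 0.0108) and ALDOC (−0.79, SE 0.14, adjusted p = 0.00607), or 1 rose and 1 fell when scaled by library size alone. Of all 13258 genes, 14.4% passed, or 1261 as higher and 688 as lower with that scaling. A fit with the library prefix as a term used all 5 conditions, since 2DF shares 1 prefix with 3DF_50 and 0 with 2DC. The prefixes of 2DF replicates 2 and 3 and of 3DF replicate 3 occur in no other library. In that fit 2DF therefore rested on its replicate 1, and a 2DF call lost in it, here or below, cannot decide whether a difference holds. The log2 fold changes of 2DF vs. 2DC in it were 1.44 for ENO2, −0.36 for TPI1 and −0.07 for ALDOC. In 3DF_50 vs. 2DC 3 rose and 5 fell, or 5 and 3 when scaled by library size alone. There 38% of all genes passed, or 47.6% as higher and 10.3% as lower with that scaling.

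PDK4, a starvation-induced relative of PDK1, was at 18.9, 11.4 and 9.26 FPKM in 2DC, 29.8, 42.9 and 20.6 in 2DF, 145, 100.1 and 98.8 in 3DF, and 87.0, 70.7 and 83.6 in 3DF_50. On the log2 scale it rose by 3.10 in 3DF vs. 2DC (SE 0.28, edgeR adjusted p = 0.00037), by 2.60 in 3DF_50 vs. 2DC (SE 0.24, adjusted p = 6.89e-05), by 1.24 in 2DF vs. 2DC (SE 0.30, adjusted p = 0.0279) and by 1.88 in 3DF vs. 2DF (SE 0.26, adjusted p = 0.00278). With the library prefix as a term the last call was lost (1.77), as was the one in 2DF vs. 2DC (1.88), which 2 limma fits and the fits without 2DC replicate 2 (1.14) or 3 (1.03) or 2DF replicate 1 (1.27) or 2 (0.94) also lost. The PDK1 to PDK4 ratio of FPKM was largest for 2DC_L (1.56 ± 0.438), followed by 2DC (0.826 ± 0.219), 2DF (0.297 ± 0.128), 3DF (0.103 ± 0.011) and 3DF_50 (0.102 ± 0.009). PDK4 was thus the less abundant of the 2 kinases in each 2DC_L library and the more abundant in every other library. In 2DC vs. 2DC_L, where PDK4 averaged 13.2 and 6.16 FPKM, the difference of 1.09 on the log2 scale did not pass (SE 0.29, edgeR adjusted p = 0.512), and DESeq2 called 1 of the 16 genes of pyruvate and lactate handling, beside 0.691% of all genes.

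SLC16A1, the lactate and pyruvate transporter MCT1, was at 28.0, 33.9 and 31.7 FPKM in 2DC, 25.1, 32.1 and 24.7 in 2DF, 76.3, 65.3 and 79.3 in 3DF, and 62.1, 52.9 and 61.4 in 3DF_50. The embedded libraries were all above the others, and 2DF and 2DC overlapped. It rose in 3DF vs. 2DC (1.23, SE 0.13, edgeR adjusted p = 0.000599) and in 3DF vs. 2DF (1.43, SE 0.15, edgeR adjusted p = 0.000885), the latter not with the library prefix as a term (1.20). PDP1 and PDP2 are phosphatases that reverse the action of the PDK enzymes. PDP1 rose in 3DF vs. 2DC (0.80, SE 0.15, edgeR adjusted p = 0.00909) and PDP2 fell (−0.65, SE 0.13, adjusted p = 0.0106). The 2DF vs. 2DC value of PDK4 was lost without 2DC replicate 2 (1.14) or 3 (1.03) or 2DF replicate 1 (1.27) or 2 (0.94). In all, 3 of 16 genes of pyruvate and lactate handling rose and 1 fell in 3DF vs. 2DC, 4 rose and 3 fell in 3DF_50 vs. 2DC (7 and 0 when scaled by library size alone), and 4 rose and 0 fell in 3DF vs. 2DF. The shares of all genes that passed were 15.4%, 38% (47.6% higher and 10.3% lower when scaled by library size alone) and 6.05%. Differences of PDK4, SLC16A1, ENO2, BPGM, PGAM2 and PDP1 in 3DF vs. 2DC passed in every fit run.

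**Figure D4:**
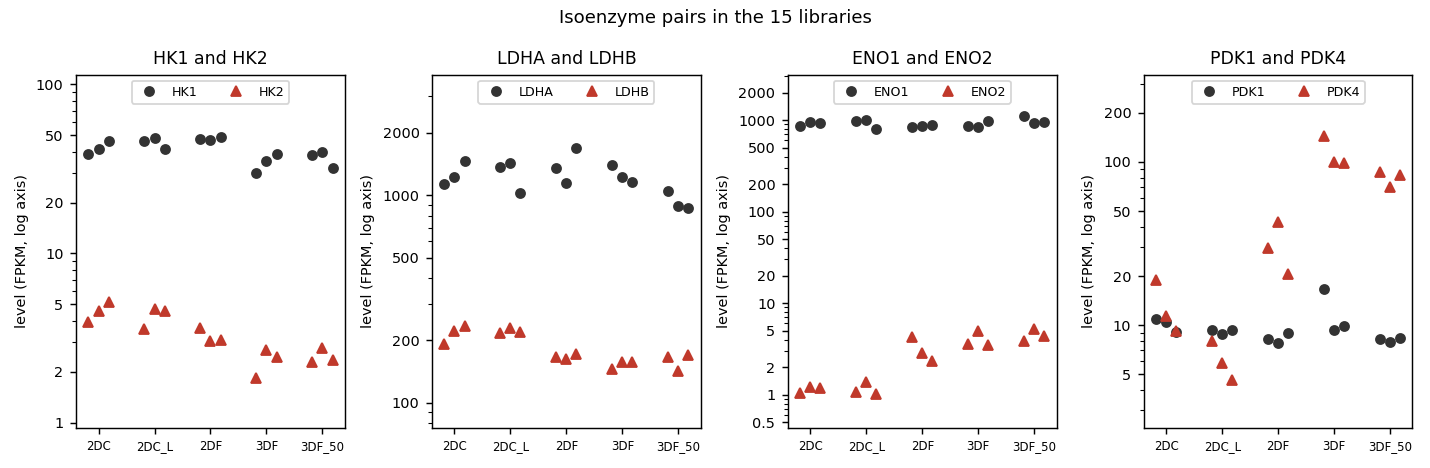
Levels (FPKM, log axis) of 4 pairs of related enzymes in the 15 libraries, by condition, where each point is a library, circles are the first gene and triangles the second. HK2 and LDHB are lower and ENO2 and PDK4 higher in every embedded library than in any 2DC library. Between the embedded conditions, HK1 is below all 2DC libraries in 3DF only, LDHA and PDK1 in 3DF_50 only, and ENO1 overlaps 2DC in both. PDK1 is also below all 2DC libraries in 2DF.

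Upstream of HK2, the glucose transporter SLC2A1 (GLUT1) averaged 41.3 ± 4.18 FPKM for 2DF, against 55.0 ± 2.80 for 2DC, 55.8 ± 2.61 for 3DF and 56.0 ± 8.11 for 3DF_50, and it was lower in 2DF vs. 2DC (−0.41, SE 0.10, edgeR adjusted p = 0.0238), a call lost without 2DC replicate 2 (−0.39) or 3 (−0.38), without 2DF replicate 1 (−0.40) or 2 (−0.33), when scaled by library size alone (−0.30) or with the library prefix as a term (−0.14). Of 4 transporters tested in 3DF vs. 2DC, 1 fell and 0 rose, and this was SLC2A8 (−0.84, SE 0.17, edgeR adjusted p = 0.0122), which was lost without 2DC replicate 2 (−0.78). In that comparison 15.4% of all genes passed. In 2DF vs. 2DC 2 of the 4 fell and 0 rose, beside 14.4% of all genes. SLC2A8 (−0.84) there passed in all 6 fits without a library and was lost only with the library prefix as a term. In 3DF_50 vs. 2DC 3 fell and 0 rose, beside 38% of all genes. Scaled by library size alone, 3 fell and 1 rose there, beside 10.3% lower and 47.6% higher of all genes. SLC2A8 (−1.19) and SLC2A10 (−0.73) passed in 3DF_50 vs. 2DC in every fit run. Of 4 genes that set fructose 2,6-bisphosphate, the activator of PFK, 0 passed in 3DF vs. 2DC in edgeR, and PFKFB3 rose in 2DF vs. 2DC from 3.46 ± 0.935 to 7.53 ± 3.32 FPKM (1.13, SE 0.30, edgeR adjusted p = 0.036). PFKFB3 was lost without 2DC replicate 1 (0.99) or 2 (1.06) or 2DF replicate 1 (1.23) or 3 (0.72). In 3DF vs. 2DC, 1 of these 4 genes had an unadjusted p under 0.05 in edgeR, beside 29.4% of all genes, and DESeq2 called 1, beside 19.9%.

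Of 13 genes of gluconeogenesis and glycogen, 2 rose and 6 fell in 3DF vs. 2DC, or 2 and 4 when scaled by library size alone. In that comparison 15.4% of all 13493 genes passed, or 1969 as higher and 790 as lower when scaled by library size alone. FBP1, which works against PFK, fell from 10.3 ± 4.01 to 2.66 ± 0.0869 FPKM (−1.97, SE 0.30, edgeR adjusted p = 0.00368). GYS1, the muscle-type glycogen synthase, fell (−0.94, SE 0.14, edgeR adjusted p = 0.00335), as did PYGL, a glycogen phosphorylase (−0.83, SE 0.13, adjusted p = 0.00379). GBE1, the glycogen branching enzyme, rose from 14.7 ± 4.59 to 34.0 ± 7.90 FPKM (1.20, SE 0.24, edgeR adjusted p = 0.0123), and was lost without 2DC replicate 2 (1.08). In 3DF_50 vs. 2DC all 13 genes tested passed, 4 higher and 9 lower, beside 38% of all genes, or 4 and 4 when scaled by library size alone, beside 47.6% and 10.3%. In the pentose phosphate pathway 1 of 6 genes rose in 3DF vs. 2DC, TKT (0.60, SE 0.13, edgeR adjusted p = 0.018), which is also a keratocyte crystallin and was lost without 2DC replicate 1 (0.59) or 2 (0.59) or 3DF replicate 2 (0.53) or 3 (0.57). In 3DF_50 vs. 2DC 3 of the 6 rose, where 38% of all genes passed.

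Several glycolytic genes, HK2, PGK1, LDHA and PDK1 among them, are known targets of hypoxia-inducible factor, and other such targets were therefore listed. Of 26 genes of that pathway outside glycolysis, 7 rose and 4 fell in 3DF vs. 2DC, where 15.4% of all genes passed. ANGPTL4, an inhibitor of lipoprotein lipase, rose from 144 ± 36.0 to 838 ± 107 FPKM (2.53, SE 0.20, edgeR adjusted p = 0.000206), and it was the single gene of the list that passed in 2DC vs. 2DC_L (1.86, SE 0.21, adjusted p = 0.00839), at 39.6 ± 8.21 FPKM in 2DC_L, a call lost without 2DC_L replicate 2 (1.90, adjusted p = 0.0609). P4HA1 and P4HA2, subunits of the enzyme that hydroxylates collagen prolines, fell in 3DF vs. 2DC by −1.20 (SE 0.14, edgeR adjusted p = 0.000997) and −1.44 (SE 0.12, adjusted p = 0.000273), as did STC2 (−1.79, SE 0.24, adjusted p = 0.00209). HK2 and PGK1 were thus lower beside both higher and lower members of that list, more of which were higher. Of the 26, 21 had a positive and 5 a negative log2 fold change in 3DF vs. 2DC. Their median was 0.21, beside 0.012 over all genes. In 3DF_50 vs. 2DC 10 rose and 5 fell (16 and 3 when scaled by library size alone), and in 2DF vs. 2DC 6 rose and 2 fell. Of all genes, 38% passed in 3DF_50 vs. 2DC (47.6% as higher and 10.3% as lower with that scaling). The share was 14.4% in 2DF vs. 2DC and 0.367% in 2DC vs. 2DC_L.

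Across the 15 libraries, HK2 and PGK1 had the most similar profiles of the 9 genes (Pearson r of log2(FPKM + 1) = 0.911), followed by PFKP and PGK1 (0.893), and ALDOA and PDK1 the most opposed (−0.812). Among 9680 other genes with a symbol and a mean of at least 1 FPKM, those most like the mean standardised level of the 9 were PFN1, the actin-binding profilin (0.949), FKBP1A (0.938), CPNE2 (0.937), CAD, which starts pyrimidine synthesis (0.933), and ECM1 (0.933). The most opposed were AAED1 (−0.942), RNF149 (−0.940), RNF13 (−0.934), SDAD1 (−0.928) and MGA (−0.924). PFN1 averaged 216 ± 26.1 FPKM for 2DC, 177 ± 21.6 for 2DF and 143 ± 27.2 for 3DF. These are descriptions over libraries that share conditions, depth and scaling, and carry no test.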

How the data were processed

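Bulk RNA-seq of 15 libraries (5 conditions, 3 libraries each) was analysed. The authors aligned reads to oryCun2 with HISAT2 and counted them with featureCounts, and the deposited counts are whole reads per gene without normalization. The deposited FPKM values were computed by the authors per kilobase of gene and per depth, with a depth 0.921 to 1.24 times the sum of a library's counts. The annotation version, the strand setting and the treatment of reads shared between copies were not given in the sources used here, and glycolytic genes such as PGK1 and LDHA have processed copies in mammalian genomes. Conditions were read from the library titles.

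Counts were tested in edgeR 4.0.16 (R 4.3.3) with two-sided quasi-likelihood F tests, TMM, filterByExpr (min.count 10), a fit to the libraries of the 2 conditions compared and Benjamini–Hochberg adjustment over all genes tested. A gene passed at an adjusted p of at most 0.05. The SE is the log2 fold change divided by the square root of F. The scripts were tested on simulated data. Levels are FPKM, given by library or as mean ± SD. Summaries and figures were made in Python 3.11.15 (matplotlib 3.10.9, numpy 2.4.6, pandas 2.3.3).

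The genes named are the 9 glycolytic genes, with fold changes for those that passed or ended the range, the 4 of lowest adjusted p in each list and comparison with a mean of at least 1 FPKM (not all printed), and the 5 genes most like and most unlike the 9. Outside that rule, GPI, TPI1, GAPDH, PFKM, SLC2A1 in 3DF and LDHB in 3DF were named after their values were seen. PDK4 in 2DC vs. 2DC_L and LOC103347367 also stand outside that rule. The genes and lists were chosen with earlier results of these data known. Alternatives were DESeq2 1.42.0, its size factors in edgeR, library size alone, dropping the filter, keeping genes with a mean of 1 CPM or more, all 5 conditions in the fit (with or without a term for the library prefix), blocking on replicate number, the use of limma 3.58.1 on log2 FPKM with a pseudocount of 1 (with and without a filter) or 0.1, the study's threshold for a DEG, and leaving out each library. Comparisons of 2DC_L with the fibrillar conditions, and sequences, are not analysed here.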

Additional observations from a re-analysis of the deposited data

How the results depend on the processing

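Of the fits for genes in the comparisons where the rule names them, 1667 kept direction and side of the threshold, 197 lost and 3 gained a call (calls gained by other glycolytic genes stand beside their comparison), and 3 turned: PDK1 in 3DF vs. 2DC (−0.080 without 3DF replicate 1, up to 0.38 without 3DF replicate 2), HK1 in 2DF vs. 2DC (−0.0029 with the library prefix as a term) and PDK1 in 3DF_50 vs. 2DC (0.042 with library size alone). The number of the 9 genes passing in 3DF vs. 2DC was 2, and 4 in DESeq2 and with all 5 conditions in the fit. In 2DF vs. 2DC it was 1, and 0 with library size alone, the replicate number as a block, the prefix as a term, all 5 conditions and each limma fit (0 to 1 on leaving out a library). In 3DF vs. 2DF it was 0, and 1 in DESeq2 and 3 with all 5 conditions. In 3DF_50 vs. 2DC it was 5, and 3 with the prefix, all 5 conditions and limma without a filter (3 to 4 on leaving out a library). In 3DF_50 vs. 2DF it was 3, and 1 with the replicate block and 0 with the prefix and limma without a filter (0 to 2 on leaving out a library). Any difference among the conditions was passed by 5, by 2 (with the prefix) to 7 in 10 other fits, and by 5 to 6 on leaving out a library. At the study's DEG threshold each pairwise number was 0 in the test as designed. The prefix as a term was fitted with all 5 conditions, so those values differ in both choices. In that fit 2DF rested on its replicate 1, since the prefixes of its other libraries occur nowhere else. Calls that involve 2DF therefore cannot be judged by it. Same-numbered libraries had correlations of −0.154 to 0.337 between their deviations, and in no comparison were all over 0.1. This does not exclude pairing, since replicates 1 and replicates 2 of 2DC and 2DC_L share a prefix. With 3 libraries a condition, changes the size of the SEs given were not detectable, and larger ones could also be missed. In simulated data with 200 genes changed by 1 on the log2 scale, edgeR recovered 63.5% of them for 3DF vs. 2DC. For 3DF vs. 3DF_50 it recovered 63%.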
